A study of Mus musculus with 6 samples.

Results

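Chromatin remodellers use the energy of ATP to slide, evict or exchange nucleosomes, and so decide which stretches of DNA a transcription factor can reach. In the SWI/SNF family, also called BAF, one ATPase (Smarca4 or Smarca2) is joined by core subunits and by subunits that define the canonical BAF, PBAF and non-canonical BAF assemblies. The NuRD complex joins a Chd ATPase to histone deacetylases and to methyl-DNA-binding proteins, and ISWI complexes join Smarca5 or Smarca1 to a large partner such as Bptf or a Baz protein. In thymocytes Smarca4 and Chd4 are both known to act at the gene of the coreceptor Cd4. The mRNA of 41 genes that encode subunits of these complexes was followed here, out of 48397 genes in the count table. The genes were taken by symbol from a list of known subunits, 25 of SWI/SNF, 10 of NuRD and 6 of ISWI, and all 41 were found.

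The cells were invariant natural killer T (iNKT) cells at stage 0, the first stage after positive selection in the thymus, from mice aged 8 to 10 weeks. BALB/c mice were wild type, and SKG mice carry a hypomorphic mutation of the TCR kinase Zap70 on the same BALB/c strain. The mutation weakens TCR signaling, and the comparison asks which genes differ between the genotypes. According to the paper BALB/c mice were purchased, and no SKG littermates are named. Genotype and colony therefore cannot be told apart. Each genotype had 3 libraries, and each library came from about 1000 sorted cells (CD1d tetramer-positive, CD44-negative, CD24- and CD69-positive, CD4-low or -negative and CD8-negative) from the thymi of 3 pooled mice. A replicate is therefore a pool and not an animal, and the mutation is carried by every cell of the SKG mice.

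The libraries held between 37176544 and 43115544 reads on genes. BALB/c replicate 1 and SKG replicate 3 had the fewest genes with at least 10 reads, 11415 and 10835, against 11830 to 14791 in the others. All 7 T-lineage markers were detected, with summed levels of 4337 to 5791 CPM (read counts scaled to the size of each library) in BALB/c and 4378 to 5439 in SKG, although Thy1 had as few as 7 reads in a library. The summed level of the stage 0 genes Cd24a, Cd69, Egr2 and Zbtb16 was 1674 to 2033 CPM in BALB/c and 943 to 1388 in SKG, without overlap. Most of that sum was Egr2, at 1351 ± 230.1 CPM in BALB/c against 777 ± 249 in SKG (SD, n = 3), and Cd69 was also lower in SKG without overlap. Zbtb16 overlapped, at 151 ± 28.0 against 119 ± 41.8, and Cd24a, a marker of the sort, had the higher mean in SKG, at 70.4 ± 33.4 against 25.1 ± 24.0 in BALB/c, with overlap. Genes of double-positive thymocytes, which the sort on CD8 should remove, summed to 39.3 to 394 CPM in BALB/c, with the highest value in replicate 1, and to 72.3 to 153 in SKG. Myeloid genes summed to at most 53.7 CPM in BALB/c and 107 in SKG, nearly all from Lyz2, and were highest in BALB/c replicate 1 and SKG replicate 3. Erythroid genes reached 69.7 CPM in BALB/c replicate 1 and at most 1.57 in any other library. The B-cell list did not exceed 8.38 CPM, the epithelial genes Krt5 and Psmb11 and the myeloid gene Cd14 had 0 reads in every library, and the epithelial sum of 10.3 to 86.9 CPM came almost wholly from Epcam. The part of these reads in the results was not tested. For Smarca4, Smarcd2, Dpf2 and Dpf3 the log2 fold change is also given without both BALB/c replicate 1 and SKG replicate 3. Sums and shares were not recomputed without these libraries.

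The ATPase gene Smarca4 was among the genes whose libraries were fully separated by genotype. So were the paralogues Dpf2 and Dpf3, which encode alternative plant-homeodomain subunits of canonical BAF and lay apart in opposite directions. The promoter sequences of these genes are shown for that reason, a choice made from the same values. None of them was called by edgeR, and the promoters of Smarcd2, Smarcc2 and Gatad2a, which were also separated, are not shown. RefSeq promoters (GRCm38.p6) were found for 34 of the 41 genes. Each sequence reads 5′ to 3′ on the strand of its gene and ends before the more upstream of its RefSeq and GENCODE starts. For that reason the Dpf2 sequence was cut to 111 bases, and the Dpf3 sequence ends short of the GENCODE start. Capitals mark the letters of a motif searched on both strands. The motifs were GCGNGGGCG for Egr factors, the NFAT core GGAAA, and the GC box GGGCGG, which can overlap the Egr motif. The Smarca4 sequence lies at chr9:21615919-21616168 on the plus strand, that of Dpf2 at chr19:5913011-5913121 on the minus strand and that of Dpf3 at chr12:83487737-83487986 on the minus strand.
Smarca4: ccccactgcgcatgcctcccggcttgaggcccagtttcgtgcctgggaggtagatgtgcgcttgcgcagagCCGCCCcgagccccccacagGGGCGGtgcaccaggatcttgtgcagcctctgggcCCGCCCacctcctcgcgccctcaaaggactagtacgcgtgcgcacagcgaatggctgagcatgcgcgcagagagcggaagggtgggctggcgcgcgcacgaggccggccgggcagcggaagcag
Dpf2: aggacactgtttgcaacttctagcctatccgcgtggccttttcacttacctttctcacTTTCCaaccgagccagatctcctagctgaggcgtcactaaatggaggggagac
Dpf3: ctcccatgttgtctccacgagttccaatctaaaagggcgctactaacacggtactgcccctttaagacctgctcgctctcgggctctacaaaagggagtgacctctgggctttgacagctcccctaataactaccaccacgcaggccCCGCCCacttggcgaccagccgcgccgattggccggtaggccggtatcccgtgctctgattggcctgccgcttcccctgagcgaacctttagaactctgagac

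The Smarca4 sequence held 3 GC boxes, that of Dpf3 held 1, and the 111 bases of Dpf2 held 1 NFAT core. None of the printed sequences held the Egr motif. Shares of promoters with a motif were taken over the full 250 bases before the RefSeq start, also for Dpf2. The GC box was present in 35 of 39 promoters of subunit genes (89.7%). It was present in 57.7% of 10733 promoters of genes tested here and in 32.7% of all 32851 promoters. The Egr motif was present in 5 of the 39 (12.8%), against 8.78% of the promoters of tested genes and 4.70% of all. The NFAT core was present in 16 (41.03%), against 54.1% and 55.6%. A match of letters does not show that a factor binds there.

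Subunit levels, compared between genes as CPM per kb of exon and averaged over the 6 libraries, spanned a wide range. The NuRD genes Mta2, which encodes a scaffold of the deacetylase module, Rbbp7, a histone-binding chaperone, and Mbd3, which links that module to the rest of the complex, were the highest at 162, 158 and 130 CPM per kb. The SWI/SNF core gene Smarcd2 followed at 88.4. The ATPase genes Smarca4 and Chd4 lay side by side at 38.4 and 37.9, with Smarca5 at 23.5, Chd3 at 12.1 and Smarca2 at 2.76. The canonical BAF gene Arid1a was at 18.2, the PBAF gene Arid2 at 10.0 and the ISWI partner Bptf at 7.69. Exon lengths were those of all annotated exons of a gene, so a gene with long rarely used exons is placed too low.

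**Figure D1:**
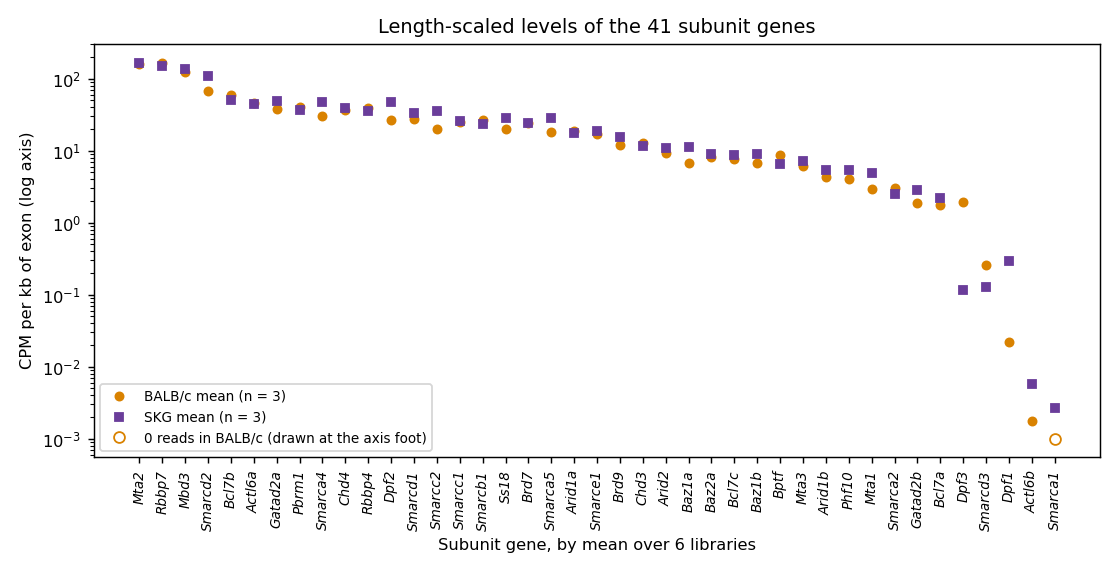
Mean level of each of the 41 subunit genes in BALB/c (circles) and SKG (squares), in CPM per kb of exon on a log axis, ordered by the mean over 6 libraries. The order runs from Mta2, Rbbp7 and Mbd3 above 100 to Smarca1, drawn at the foot of the axis for BALB/c because it had 0 reads there.

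The 3 paralogues Actl6b, Dpf1 and Smarca1 had too few reads to pass edgeR's filter, so that 38 genes were tested. Smarca1, the second ISWI ATPase, had 2 reads in SKG replicate 1 and 0 in the 5 other libraries. Actl6b, an actin-related subunit of neuronal BAF, had 4 reads in all. A count of 0 allows up to 3 reads, or 0.0664 to 0.0830 CPM depending on the library, by counting error alone. Dpf1 had 200 reads, of which 184 were in SKG replicate 2, and at most 10 in any other library. Smarcd3 passed the filter with 80, 64 and 11 reads for BALB/c against 78, 0 and 1 for SKG. Of the exon bases of Smarcd3, 48.2% overlap Chpf2 on the opposite strand, and SKG replicate 2, with 0 reads of Smarcd3, had 1836 reads of Chpf2. How reads in this overlap were assigned was not tested, so the level of Smarcd3 per kb is uncertain.

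Summed over the 25 SWI/SNF genes, subunit mRNA was at 2799, 3158 and 2844 CPM in the BALB/c replicates 1 to 3 and at 3481, 3535 and 3496 CPM in the SKG replicates. Every SKG library lay above every BALB/c library, with means of 2934 ± 196 for BALB/c against 3504 ± 27.5 for SKG (SD, n = 3), a ratio of 1.19. The 10 NuRD genes summed to 2403 ± 215 CPM in BALB/c and 2455 ± 316 in SKG (SD, n = 3), and the 6 ISWI genes to 495 ± 62.4 and 615 ± 87.5, both with overlapping libraries. These sums are descriptions and were not tested. Of the difference of 571 CPM in the SWI/SNF sum, Smarcd2 made up 153, Dpf2 137, Smarca4 109, Smarcc2 86.0 and Ss18 80.0. Of the 23 tested SWI/SNF genes, 15 were higher and 8 lower in SKG. The separated sum thus rests on a few abundant genes and adds no separate result to those given gene by gene. Among all single genes tested, 13.9% were separated in either direction, and no such background was computed for sums. As a share of all reads on genes, a measure without normalization factors, the 41 genes took 0.594%, 0.596% and 0.574% in BALB/c and 0.662%, 0.668% and 0.614% in SKG. In these bulk libraries, fewer cells of a type and less RNA per cell cannot be told apart.

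**Figure D2:**
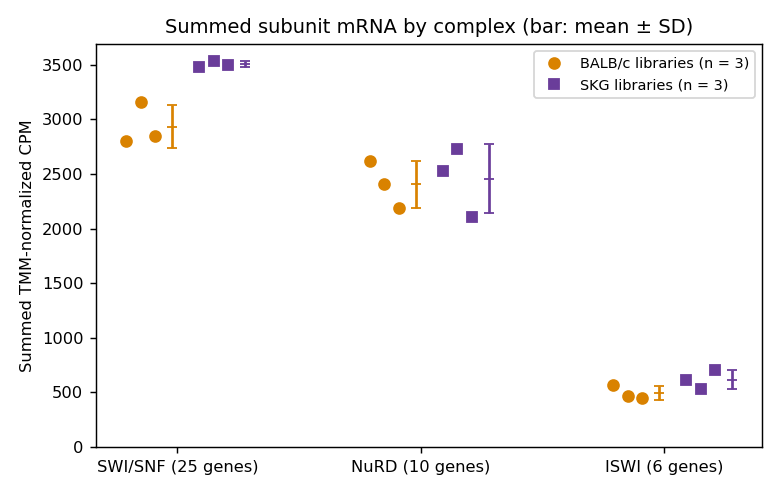
Summed CPM of the SWI/SNF, NuRD and ISWI genes in each library, with the mean ± SD of the 3 libraries of a genotype beside the points. The 3 SKG libraries lie between 3481 and 3535 for SWI/SNF, above the BALB/c libraries, whereas the genotypes overlap for NuRD and ISWI.

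Gene by gene, 0 of the 38 tested subunit genes were called between the genotypes (adjusted p under 0.1 together with a change of 1.5-fold or more) by edgeR's quasi-likelihood test, as were 0 (0%) of all 12312 genes tested. The lowest adjusted p among the subunits was 0.686, for Smarca4. At an unadjusted p under 0.05 there were 4 subunit genes, Smarca4, Smarcd2 and Dpf2 higher in SKG and Dpf3 higher in BALB/c, or 4 of 38 beside 5.45% of all genes tested. BALB/c and SKG libraries were fully separated for these 4 and for Smarcc2 and Gatad2a, 6 of 38 genes beside 13.9% of all genes. Of the 6, 5 were higher in SKG, where the background was 6.77%, and 1 was higher in BALB/c, where it was 7.12%. The median log2 fold change (SKG over BALB/c) was 0.16 over the 38 genes and -0.02 over all genes tested. Of the 38, 26 were higher in SKG, beside 6030 of all 12312 genes tested. Subunit genes were also more abundant than the typical gene, with a median mean level of 124 CPM against 30.5, and varied less between libraries of a genotype, with a median coefficient of variation of 27.1% against 41.9%. The last difference was not separated from that in abundance.

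DESeq2, run on the same counts, called 3 of the 38 genes without shrinkage of fold changes, Smarca4, Dpf2 and Dpf3, beside 1.54% of all genes. With shrunken fold changes it called 2, Smarca4 and Dpf2, beside 1.19%. The adjusted p of Smarca4 was 0.0425 and 0.0392 with these DESeq2 settings, and that of Dpf2 0.0841 and 0.0714. For Dpf3 it was 0.0826 without shrinkage, and with shrinkage DESeq2 gave none. The limma-voom test called 0 and had the same 4 genes at an unadjusted p under 0.05.

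**Figure D3:**
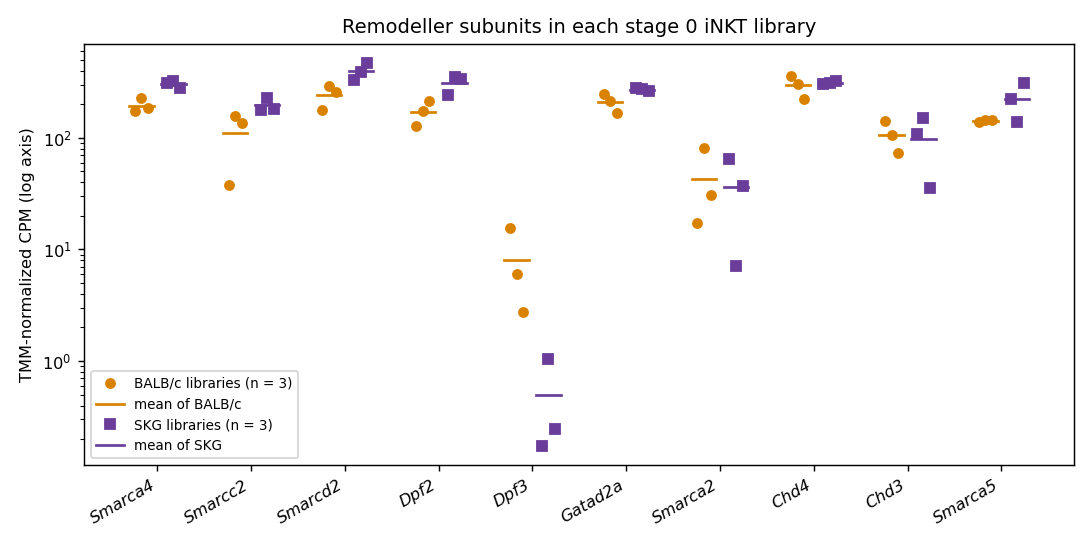
TMM-normalized CPM on a log axis of 10 subunit genes in each BALB/c (circles) and SKG (squares) library, with bars at the means. For Smarca4, Smarcc2, Smarcd2, Dpf2 and Gatad2a all SKG points lie above all BALB/c points, for Dpf3 all lie below, and for the other ATPase genes they overlap.

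Smarca4 encodes the main SWI/SNF ATPase, also known as Brg1, and lies at chr9:21616169-21704230 of GRCm38. It had 7155, 8386 and 8266 reads for BALB/c against 12432, 12498 and 10120 for SKG, so that the lowest SKG library was above the highest BALB/c library. After normalization its level was 194 ± 28.0 CPM for BALB/c against 303 ± 21.3 for SKG (SD, n = 3), 1.56-fold higher in SKG. The log2 fold change was 0.64 (standard error 0.16, 95% interval 0.26 to 1.03, edgeR adjusted p = 0.686), and it lay between 0.57 and 0.76 with any single library left out. Without both BALB/c replicate 1 and SKG replicate 3 it was 0.63. Its alternative ATPase Smarca2, or Brm, was far more variable, with 718, 2975 and 1376 reads for BALB/c against 2606, 276 and 1330 for SKG. The levels of Smarca2 differed 4.61-fold among BALB/c and 9.11-fold among SKG libraries, and its log2 fold change of -0.24 had a 95% interval from -2.36 to 1.88. Leaving out replicate 2 turned its sign, giving 0.58 when the BALB/c one was dropped and 0.26 when the SKG one was. Per kb of exon, Smarca4 made up 86.1% to 95.6% of the ATPase mRNA in BALB/c and 91.3% to 99.0% in SKG.

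Among the core and shared SWI/SNF subunits, Smarcd2, a BAF60-type subunit that links the complex to transcription factors, stood highest. Smarcd2 (chr11:106263179-106272972) had 7282, 10695 and 11650 reads for BALB/c against 13229, 15018 and 16862 for SKG. Its levels of 241 ± 57.8 and 394 ± 69.3 CPM (SD, n = 3) did not overlap, with a log2 fold change of 0.71 (standard error 0.23, edgeR adjusted p = 0.833). Without BALB/c replicate 1 and SKG replicate 3 the log2 fold change was 0.40.

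Smarcc2, which encodes the scaffold BAF170 and lies at chr10:128459248-128490482, had 1549, 5773 and 6098 reads for BALB/c against 7118, 8879 and 6545 for SKG. The low BALB/c mean came from replicate 1, at 37.6 CPM against 156 and 135 in the other BALB/c libraries. The log2 fold change of 0.84 (95% interval -0.35 to 2.02, edgeR adjusted p = 0.972) was 0.43 when that library was left out. Its partner scaffold Smarcc1 was at 196 ± 53.5 CPM in BALB/c and 200.4 ± 71.9 in SKG (SD, n = 3).

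For the other core genes the libraries of the genotypes overlapped. Ss18, a subunit of canonical and non-canonical BAF that is fused to SSX in synovial sarcoma, had a log2 fold change of 0.51 (95% interval -0.25 to 1.27). Smarcb1 (-0.17), Smarce1 (0.13), Smarcd1 (0.27), Actl6a (-0.07), Bcl7b (-0.22) and Bcl7c (0.16) showed smaller log2 fold changes. The 95% intervals of these 6 genes lay within a 2-fold change in either direction. Bcl7a was at 0.29, but its SKG libraries ranged 3.91-fold and its interval reached from -1.31 to 1.90.

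Canonical BAF held the most contrasting pair. Dpf2 (chr19:5896516-5913010), which encodes a subunit that reads modified histone H3 tails, had 5229, 6407 and 9628 reads for BALB/c against 9663, 13574 and 12058 for SKG. Its levels were 171 ± 43.2 and 307 ± 59.1 CPM (SD, n = 3), without overlap, although BALB/c replicate 3 and SKG replicate 1 were close at 213 and 240 CPM. The log2 fold change was 0.85 (standard error 0.25, 95% interval 0.25 to 1.44, edgeR adjusted p = 0.804), and 0.62 without BALB/c replicate 1 and SKG replicate 3.

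Dpf3 (chr12:83213745-83487716), the paralogue best known from heart and skeletal muscle, went the other way at much lower counts. It had 638, 225 and 124 reads for BALB/c against 7, 41 and 9 for SKG. The mean level was 8.09 ± 6.60 CPM in BALB/c but 0.492 ± 0.488 CPM in SKG (SD, n = 3). Each BALB/c library was above each SKG library, but the levels differed 5.63-fold among BALB/c libraries. The log2 fold change was -4.03 with a wide 95% interval from -7.17 to -0.89 (edgeR adjusted p = 0.830). With DESeq2 shrinkage, which pulls imprecise fold changes towards 0, it was -0.78. It ranged from -5.23 without SKG replicate 2 to -3.14 without BALB/c replicate 1, and was -2.82 without both BALB/c replicate 1 and SKG replicate 3. The highest Dpf3 count was in BALB/c replicate 1, the library that also had the most erythroid and double-positive thymocyte reads. In the 2 other BALB/c libraries Dpf3 was at 6.07 and 2.75 CPM, and in SKG at most at 1.05. Whether other cells contributed to the Dpf3 reads of any library was not tested.

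The libraries of the genotypes overlapped for the DNA-binding subunit genes of canonical BAF. Arid1a was at 216 ± 41.4 CPM in BALB/c and 201 ± 72.2 in SKG, and Arid1b at 53.8 ± 12.8 and 67.2 ± 21.2 (SD, n = 3). SKG replicate 3 had the lowest Arid1a level of the 6 libraries, at 118 CPM.

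The libraries of the genotypes overlapped for each of the 4 genes specific to PBAF and for Brd9, the gene specific to non-canonical BAF. Pbrm1, a subunit with several bromodomains, was at 353 ± 31.0 CPM in BALB/c and 328 ± 67.4 in SKG (SD, n = 3), and Brd7 at 126 ± 4.26 and 126 ± 45.7. The log2 fold changes were -0.11 for Pbrm1 and 0.01 for Brd7, with 95% intervals of -0.56 to 0.35 and -0.66 to 0.68. Arid2 was at 0.23 and Brd9 at 0.37. Phf10 had 1437, 215 and 840 reads for BALB/c against 830, 665 and 1490 for SKG, a 6.01-fold range of levels within BALB/c, and its interval from -1.43 to 2.25 allowed a large difference in either direction. Of the exon bases of Phf10, 9.57% overlap 1600012H06Rik on the opposite strand.

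NuRD genes were abundant and had a median log2 fold change of 0.12 over 10 genes. Chd4, the main NuRD ATPase, had 14873, 11317 and 10112 reads for BALB/c against 12092, 11949 and 11775 for SKG. Its level was 297 ± 68.8 CPM in BALB/c and 311 ± 13.1 in SKG (SD, n = 3), and the interval of its log2 fold change, from -0.40 to 0.54, left out a 2-fold change. The sign of the Chd4 value of 0.07 turned when BALB/c replicate 3 was left out. Chd3, the alternative ATPase, had 5779, 3951 and 3331 reads for BALB/c against 4384, 5841 and 1287 for SKG. SKG replicate 3 was far below the others for Chd3, and the log2 fold change of -0.12 became 0.29 without it and 0.13 without BALB/c replicate 1.

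Of the other NuRD genes, Gatad2a, a zinc-finger subunit that bridges Mbd3 and the Chd ATPase, was the one whose genotypes did not overlap. It lies at chr8:69907076-69996384 and had 10167, 7900 and 7583 reads for BALB/c against 11134, 10623 and 9418 for SKG. The levels were 209 ± 39.4 and 270.0 ± 8.45 CPM (SD, n = 3), a log2 fold change of 0.37 with a 95% interval from -0.06 to 0.79 (edgeR adjusted p = 0.952). Mta2 was at 655 ± 55.7 CPM in BALB/c and 670 ± 193 in SKG, and Mbd3 at 243 ± 27.3 and 273 ± 29.0 (SD, n = 3). Rbbp4 and Rbbp7 had log2 fold changes of -0.15 each. Gatad2b, the paralogue of Gatad2a, was at 0.57 and Mta3 at 0.25, each with overlap. Mta1 was at 0.75, the largest in NuRD, but at 180 to 746 reads a library and with an interval from -1.12 to 2.61.

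In ISWI, Smarca5, the ATPase also called Snf2h, had 5702, 5355 and 6551 reads for BALB/c against 8978, 5331 and 11112 for SKG. The BALB/c libraries lay within 138 to 145 CPM, and SKG replicate 2, at 137 CPM, was below all of them while the 2 other SKG libraries were at 223 and 307 CPM. The log2 fold change was 0.64 (95% interval -0.06 to 1.34, edgeR adjusted p = 0.952), and 0.35 without SKG replicate 3. Baz1a, the partner in the ACF complex, was at 49.0 ± 19.1 CPM in BALB/c and 80.4 ± 21.2 in SKG (SD, n = 3), with a log2 fold change of 0.71 (interval -0.18 to 1.61). Baz1b (0.40) and Baz2a (0.15) were higher and Bptf (-0.40), the histone-reading partner in the NURF complex, lower in SKG on average, each with overlapping libraries.

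**Figure D4:**
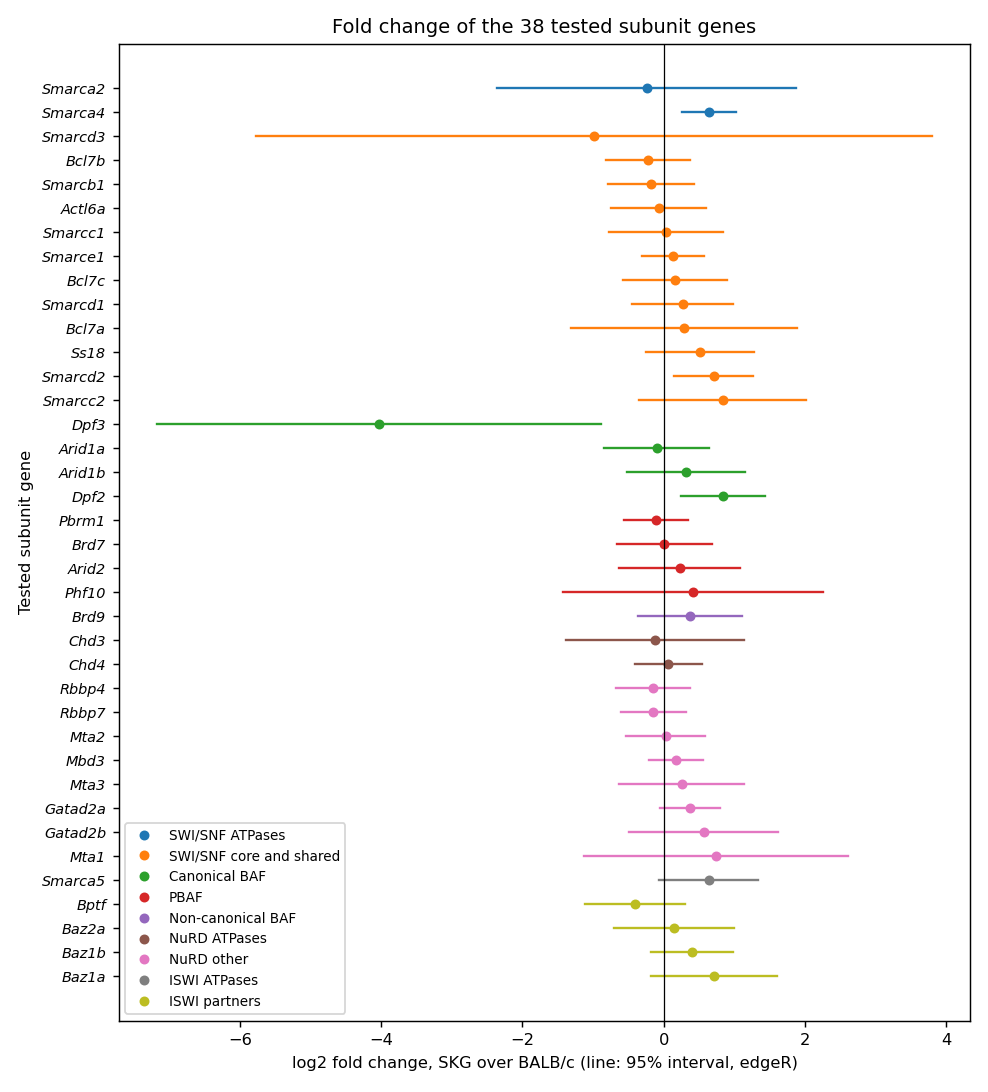
Log2 fold change of the 38 tested genes, SKG over BALB/c, with lines for the 95% interval from edgeR and colors for the subunit role. The intervals of Smarca4, Smarcd2, Dpf2 and Dpf3 exclude 0, and those of 17 of the 38 genes lie within a 2-fold change either way.

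The intervals show what these libraries could resolve. For 17 of the 38 genes the 95% interval lay within a 2-fold change in either direction, and for another 17 it included 0 but reached a 2-fold change, so that a difference of that size was not excluded. The intervals are for single genes and were not widened for the number of genes tested.

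Many subunits of these complexes are encoded by families of paralogues, and the share of a paralogue within its family was computed in each library from reads per kb of exon. Some paralogues exclude each other in a complex and others, such as Smarcc1 and Smarcc2, can occur together, so that a share describes mRNA and not complexes. In 12 of 13 families the libraries of the genotypes overlapped for every paralogue. The exception was the Dpf family, in which Dpf3 took 15.8%, 5.12% and 1.94% in BALB/c and 0.111%, 0.455% and 0.115% in SKG. Dpf3 was already separated as a single gene, so its share adds no separate result. Among all single genes tested, 13.9% were separated, and no such background was computed for shares. The families of Actl6a and of Smarca5 held almost only that paralogue and could hardly separate. The share of Dpf2 was 92.3% ± 7.20 in BALB/c and 99.2% ± 1.12 in SKG (SD, n = 3), but it separated the genotypes by a margin of under 0.01 percentage points and overlapped when exon length was not used. Smarcc2 took 28.3%, 49.6% and 45.3% of the Smarcc reads per kb in BALB/c and 48.4%, 60.3% and 67.4% in SKG, with the lowest SKG library within the BALB/c range. Arid1b took 15.3%, 16.5% and 24.3% of its family in BALB/c and 25.2%, 20.0% and 26.0% in SKG, again with the lowest SKG library within the BALB/c range. Several families were dominated by 1 paralogue in both genotypes, as Mta2 with 89.7% to 96.0%, Gatad2a with 92.5% to 96.3% and Bcl7b with 79.9% to 89.8% over the 6 libraries. Smarcd2 exceeded Smarcd1 in every library, with 56.6% to 84.5% of its family. Baz1a and Baz1b were near even, Baz1a taking 41.2% to 63.7%.

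**Figure D5:**
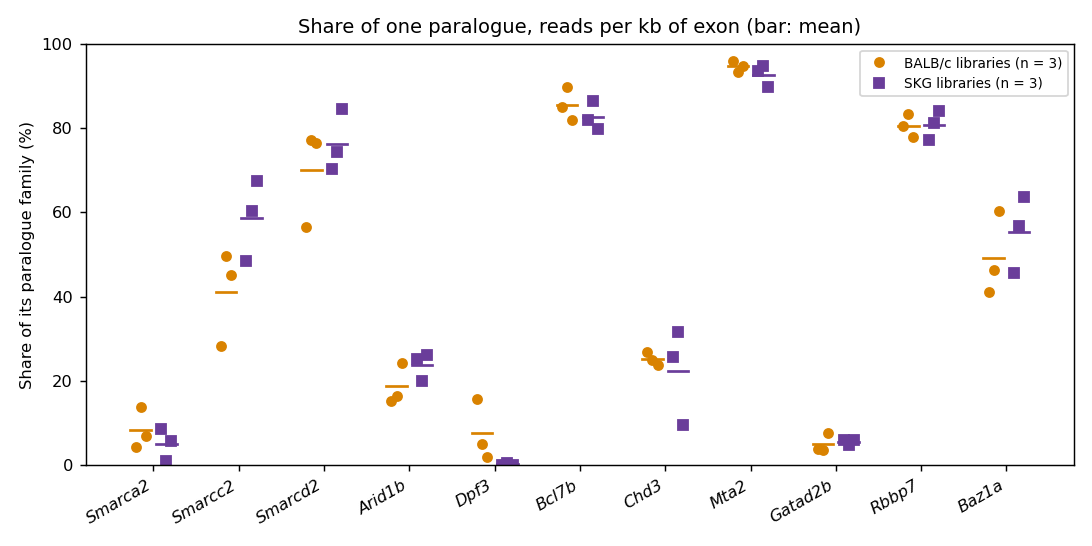
Share of 1 paralogue within its family in each library, in percent of reads per kb of exon, with BALB/c as circles, SKG as squares and bars at the means. Dpf3 falls from at least 1.94% in BALB/c to at most 0.455% in SKG, and Smarcc2 and Arid1b have higher means in SKG with overlap. The other shares overlap as well.

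Other genes of the same machinery were taken from a list of 15 further subunits and 22 further SNF2-type remodellers. Of these 12 and 22 passed the filter on low counts, and 0 were called by edgeR. Among the further subunits, 1 of 12 had an unadjusted p under 0.05 by edgeR, beside 5.45% of all genes tested. It was Ss18l1, a paralogue of Ss18 found in neuronal BAF. Ss18l1 had 256, 155 and 444 reads for BALB/c against 1705, 896 and 1090 for SKG, without overlap, a log2 fold change of 2.24 (edgeR adjusted p = 0.734). The median log2 fold change of the 12 further subunits was 0.52, with 10 higher in SKG. The deacetylase genes of NuRD were close to even, at -0.07 for Hdac1 and 0.16 for Hdac2. Bcl11b, a T-cell factor that joins BAF, had 2907, 2303 and 2083 reads for BALB/c against 5191, 6984 and 1674 for SKG. After normalization, SKG replicate 3 at 46.3 CPM was level with BALB/c replicate 3 at 46.1 CPM. Among the further remodellers, 1 had an unadjusted p under 0.05, Chd7, with 345, 620 and 1187 reads for BALB/c against 1511, 1542 and 2658 for SKG (log2 fold change 1.55, edgeR adjusted p = 0.847). Their median log2 fold change was 0.13, with 12 of 22 higher in SKG. Over all genes tested, 6030 of 12312 were higher in SKG and the median log2 fold change was -0.02. Of all these genes, 5.45% had an unadjusted p under 0.05 and 13.9% had no overlap between the genotypes.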

How the data were processed

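The authors aligned 50-nt reads with HISAT2 2.1.0, unstranded, to GRCm38, and reads on exons (mapping quality 10 or higher) were assigned to genes with featureCounts (Subread 1.4.4). The deposited counts are whole numbers without normalization. A second deposited table holds only the authors' own DESeq2 comparison and was not used. The labels and the paper's methods name different amplification kits, and which was used could not be settled. PCR copies cannot be told from separate molecules.

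Counts of all 6 libraries entered 1 fit in R 4.3.3. Genes passing filterByExpr were normalized with TMM (CPM) and tested with edgeR 4.0.16 (quasi-likelihood F test, Benjamini-Hochberg over 12312 genes). Standard errors were obtained by dividing the absolute log2 fold change by the root of F. Alternatives were DESeq2 1.42.0, limma-voom (limma 3.58.1), other normalization and filters, libraries left out and replicate blocks. On data simulated with a dispersion (a measure of the spread between replicates) of 0.05, the edgeR fit recovered 200 of 200 changed genes. The common dispersion of the real libraries was 0.842, so that simulation does not show what the fit can recover here. P-values measure the spread between pools of mice. Exons came from GENCODE M21 and promoters from RefSeq. Residual correlations between libraries of the same title number lay from -0.145 to -0.00962, and those of the same library number were -0.0384 and 0.00289. The libraries were therefore not taken as pairs, although such correlations cannot exclude a shared preparation.

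Genes given in every library were the ATPases, those with an unadjusted p under 0.05 or no overlap, and those with over 10-fold ranges within a genotype at a mean of at least 100 reads (there were 0). Members and lists were chosen with earlier results of these data known. Smarcd3, Phf10, Smarcc1, Mta1, Ss18l1, Chd7 and Bcl11b were described after their values were seen.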

Additional observations from a re-analysis of the deposited data

How the results depend on the processing

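With edgeR 0 subunit genes were called under any normalization, filter, left-out library or replicate block, and limma-voom also called 0, whereas DESeq2 called 3 without and 2 with shrinkage. The cause of that difference was not tested. With a replicate block by title number there were 0 calls, 3 genes at an unadjusted p under 0.05 and a median log2 fold change of 0.13. With a replicate block by library number that median was 0.11, and without a filter on low counts, over 41 genes, it was 0.23. Leaving out libraries moved the median from 0.16 to 0.23 and the number of genes without overlap from 7 to 15, fewer libraries making overlap rarer by construction. The value of 15 comes from leaving out both BALB/c replicate 1 and SKG replicate 3, an alternative chosen after seeing the data. With libraries left out, the log2 fold change lay between -0.97 and 0.58 for Smarca2, between -0.092 and 0.24 for Chd4 and between -0.55 and 0.53 for Chd3, the upper end for Chd3 again without both. Chd4 was at -0.068 with the replicate block by library number. Log2 fold changes under an alternative were counted for 10 tested genes only, the ATPases and those with an unadjusted p under 0.05 or no overlap. Of these values, 148 kept their direction and side of the threshold, 5 passed it only under the alternative and 7 changed sign. All sign changes were in Smarca2, Chd4 or Chd3, whose genotypes overlapped. Genes chosen for separated libraries could hardly change sign when a library was left out, so these counts do not describe the other subunit genes. Dpf3 kept its direction but moved from -4.03 to -0.78 with shrunken DESeq2 fold changes. Of 10 differences in paralogue share, 10 moved by less than the spread between libraries when exon length was not used. Whether libraries with the same replicate number were prepared together could not be told.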
